A study of Homo sapiens with 8 samples.

Results

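The regions described here are stretches of the genome where, in H9 human embryonic stem cells, a NANOG peak was called and neither a SOX2 peak nor an OCT4 peak overlapped it. They were selected on the deposited peak calls: peaks of all 6 lists that overlapped by 1 bp or more were joined, and a joined region was kept when NANOG was the only factor with an H9 peak in it, whatever the other cell line held. The rule left 17450 regions, out of 148059 joined regions in all and 55521 with any H9 peak (31.4%, 95% Wilson interval 31.04 to 31.8). They took in 17454 of the 33895 H9 NANOG peaks (51.5%), and 4 of them held 2 NANOG peaks. Of the H9 OCT4 peaks a near share, 50.8%, lay in regions of OCT4 alone. For H9 SOX2 peaks and regions of SOX2 alone the share was 25.3%. "Alone" means that no other call was made in H9, not that the other factors were absent.

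The study mapped SOX2, OCT4 and NANOG by chromatin immunoprecipitation with sequencing (ChIP-seq) in 2 established human cell lines, with an IgG control in each. The stem cells are of the line H9, and NT2/D1 cells derive from an embryonal carcinoma, the malignant counterpart of a pluripotent cell. The labels give no treatment and no genetic change for either line, and each cell type is represented by 1 line. Each factor had 1 library per line, so no replicate error exists and no test between libraries was possible. Intervals cover counting error over regions only, and regions of 1 library are not replicates of a condition.

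The H9 NANOG library had 54046559 unique tags, the fewest of the H9 factor libraries, against 72186968 for SOX2 and 77649240 for OCT4. The NT2/D1 libraries had 10218752 to 23160564 unique tags and were called with other settings, so a peak that was not called there is not shown to be absent. The 3 H9 lists share 1 IgG library. In NT2/D1 the list titled OCT4 was called against another IgG library than SOX2 and NANOG, with 6479071 unique tags against 2937004, and with a model fold of 5 in place of 3. For the NT2/D1 OCT4 and NANOG libraries, titles and source names disagree: each source name gives the factor of the other library. The titles were followed. If the source names are right, every value given for NT2/D1 NANOG and NT2/D1 OCT4 changes places, in named regions too.

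NANOG is a homeodomain transcription factor that, with SOX2 and OCT4, holds pluripotent cells undifferentiated. OCT4 and SOX2 commonly bind next to each other on a composite element, and NANOG often joins them at enhancers of pluripotency genes. NANOG also binds DNA through its own homeodomain, and human embryonic stem cells sustain its expression through Activin, Nodal and FGF signals.

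Promoter sequences are shown for the genes of the 3 strongest NANOG-alone regions that the authors' annotation placed on a transcription start site (TSS). ACVR1B, whose single H9 region was NANOG alone, is shown too. Each is the RefSeq window in GRCh38.p14 from 250 bases before to 50 bases after the gene start, in the direction of the gene, matched by symbol. The peaks are on hg19, and no position was carried between the builds. Symbols alone were matched, so a window may lie at another start of its gene than the one at the peak. This was not checked, for FMN1 included. Capitals mark matches to either of 2 short homeodomain-type words, TAATGG or CATTA, to the octamer ATGCAAAT, or to a SOX-type word, AACAATG, on either strand. The reverse complement of TAATGG contains CATTA, so these words overlap.
RPF1, chr1:84479016-84479315, plus strand: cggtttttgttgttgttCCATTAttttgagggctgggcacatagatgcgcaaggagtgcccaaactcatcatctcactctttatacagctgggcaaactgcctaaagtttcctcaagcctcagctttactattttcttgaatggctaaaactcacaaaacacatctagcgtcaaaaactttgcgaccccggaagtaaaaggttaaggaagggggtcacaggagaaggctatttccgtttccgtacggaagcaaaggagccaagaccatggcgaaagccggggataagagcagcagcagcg
CCDC142, chr2:74482949-74483248, minus strand: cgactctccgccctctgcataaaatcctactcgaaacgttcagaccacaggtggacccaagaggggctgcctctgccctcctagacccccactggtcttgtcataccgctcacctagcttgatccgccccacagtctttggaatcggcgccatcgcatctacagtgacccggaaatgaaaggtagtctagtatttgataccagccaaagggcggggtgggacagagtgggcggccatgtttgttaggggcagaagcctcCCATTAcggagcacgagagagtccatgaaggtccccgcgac
FMN1, chr15:33194665-33194964, minus strand: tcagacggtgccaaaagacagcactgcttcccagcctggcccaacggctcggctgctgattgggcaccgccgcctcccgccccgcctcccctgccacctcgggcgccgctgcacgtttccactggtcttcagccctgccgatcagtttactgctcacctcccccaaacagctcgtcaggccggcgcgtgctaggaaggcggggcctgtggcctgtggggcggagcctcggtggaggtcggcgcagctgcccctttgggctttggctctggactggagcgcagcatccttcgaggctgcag
ACVR1B, chr12:51951449-51951748, plus strand: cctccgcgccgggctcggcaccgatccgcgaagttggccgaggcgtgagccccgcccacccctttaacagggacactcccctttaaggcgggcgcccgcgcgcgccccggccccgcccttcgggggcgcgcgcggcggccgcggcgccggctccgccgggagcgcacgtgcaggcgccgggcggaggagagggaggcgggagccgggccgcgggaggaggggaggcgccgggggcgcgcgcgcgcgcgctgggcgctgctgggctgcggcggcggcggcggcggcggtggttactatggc

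The windows of RPF1 and CCDC142 each held 1 match to the longer homeodomain-type word, both on the reverse strand. Those of FMN1 and ACVR1B held none of the 4 words, and their GC contents were 68.3% and 82.3%, against 47.3% at RPF1 and 57.3% at CCDC142. No match says only that these letters are not in the window, and nothing of the sequence under a peak. The ACVR1B region, 341 bp from the gene start, lay outside a window of that start.

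The NANOG peaks of these regions were weak within the H9 NANOG list. The strongest NANOG peak of a NANOG-alone region held a median of 33 ChIP tags (middle 50% of regions 25 to 44), with a fold of 4.44 over background (3.85 to 5.47). In regions that NANOG shared with SOX2 the medians were 47 tags and a fold of 6.57, in those shared with OCT4 41 tags and 4.69, and in regions with all 3 factors 74 tags and 8.73. Tags, folds and scores are the authors' own peak values. They follow from the calls that chose the regions, so they are a description and carry no test.

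**Figure D1:**
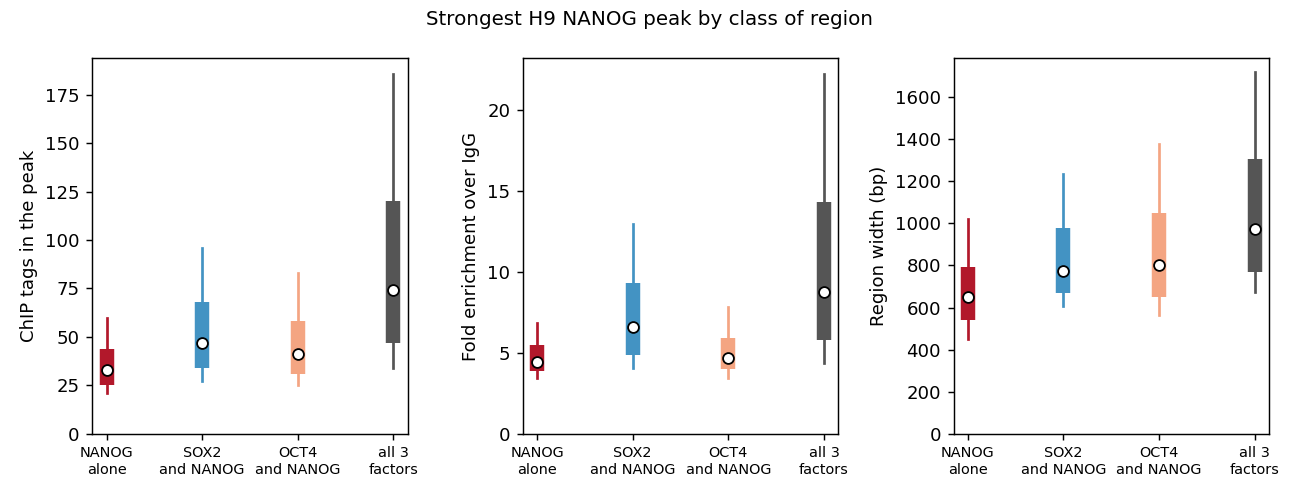
ChIP tags, fold enrichment over IgG and region width in bp (y axes) for the strongest H9 NANOG peak of each region, by the H9 factors in the region (x axis). White dots are medians, thick bars the middle 50% and thin lines the 10th to 90th percentile of regions. The NANOG-alone regions have the lowest median on each axis, with 33 tags, a fold of 4.44 and a width of 648 bp.

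Rank by score showed the same order. The score was taken to be 10 times the −log10 p-value of the peak, and a percentile is a peak's rank by score within its own list. The median NANOG-alone region stood at percentile 33.1, against 67.2 for SOX2 and NANOG, 48.8 for OCT4 and NANOG and 83.1 for all 3 factors. Of the NANOG peaks in the lowest score decile, 82.6% lay in NANOG-alone regions (81.3 to 83.8), as did 62.2% in the fifth decile and 2.18% in the highest (1.74 to 2.73). Among the strongest 5% of NANOG peaks, 5 of 1695 were in such regions. Among the NANOG-alone regions 68.7% had a deposited FDR of 5% or less, against 79.99% of all H9 NANOG peaks.

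**Figure D2:**
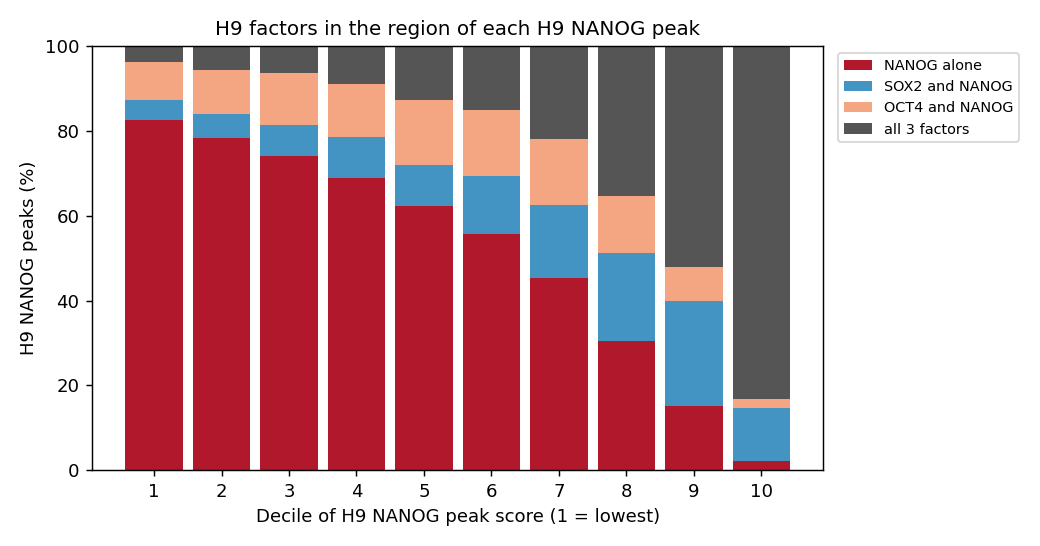
Share of H9 NANOG peaks in percent (y axis) by the H9 factors in their region, for each decile of NANOG score (x axis, 1 is the lowest). The share in NANOG-alone regions is 82.6% in the lowest decile and 2.18% in the highest, where regions with all 3 factors make up most of the bar.

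Most NANOG-alone regions lay over 5 kb from the H9 calls of the other factors. No background distance was set beside theirs. The nearest H9 SOX2 or OCT4 peak lay a median of 19.8 kb away (middle 50% 5.66 to 48.4 kb). Such a peak lay within 500 bp of 4.79% of the regions, within 5 kb of 23.1% and within 50 kb of 75.9%. At the edge of the rule, 72 NANOG-alone regions had a gap of under 50 bp to another factor, with a median of 32 tags and a fold of 4.07. Just outside it, 48 NANOG regions overlapped another factor by 1 to 50 bp, with a median of 32.5 tags and a fold of 4.44. The regions on either side of the rule therefore had similar NANOG peaks. Across chromosomes 1 to 22 and X, NANOG-alone regions made up 29.7% (chromosome 13) to 34.1% (chromosome 11) of the H9 regions.

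A few of the regions had strong NANOG peaks. The highest score lay 56.4 kb from RGS10, a regulator of G protein signalling (hg19 chromosome 10, 121238851 to 121239600), with 161 tags and a fold of 41.9. No other H9 factor had a peak within 164 kb of it, and in NT2/D1 it held an OCT4 peak with 13 tags and a fold of 13.9. Next came the region over the start of RPF1, a ribosome assembly factor (chromosome 1, 84944416 to 84945550), with 185 tags and a fold of 29.25. There the nearest H9 OCT4 peak was 25.5 kb away and the nearest SOX2 peak 92.1 kb away. RPF1 was also one of the regions with a NANOG peak in NT2/D1, with 52 tags and a fold of 11.7 (percentile 98.0 of that list), beside an NT2/D1 OCT4 peak with 12 tags.

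HAS3, a hyaluronan synthase gene, had the next region (chromosome 16, 69105527 to 69107671), with 269 H9 NANOG tags and a fold of 17.8. The HAS3 region differed from the first 2 in having other H9 factors nearby, with SOX2 and OCT4 peaks 3.96 and 4.15 kb away. In NT2/D1 it held all 3 factors, with 33 NANOG tags (fold 33.7), 33 OCT4 tags (fold 15.1) and 21 SOX2 tags (fold 15.6). The region near SERBP1, an mRNA-binding protein gene, also held all 3 factors in NT2/D1, at folds of 5.76 for NANOG, 6.99 for OCT4 and 4.12 for SOX2. The rest of the 15 highest were nearest to RASL11B, ABCC2, ADAMTS9, DUSP6, CCDC54, AXIN2, IAH1, NFATC2, BTBD3, OXGR1 and UTRN, with folds of 12.8 to 21.8.

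DUSP6 and AXIN2 in this group are feedback inhibitors, of ERK and of WNT signalling. The DUSP6 region lay 104 kb from the gene start with 124 tags and a fold of 12.8, and the AXIN2 region 65.7 kb away with 101 tags and a fold of 17.8. Neither held an NT2/D1 peak. The group lay mostly far from genes, since IAH1, an ester hydrolase gene, and RPF1 were the only genes with a start within 1 kb. ADAMTS9, a secreted metalloprotease gene, had its region 182 kb away with 85 tags.

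The NT2/D1 lists took no part in the choice beyond joining neighbouring peaks, and they served as a readout that is independent of the H9 calls. An NT2/D1 NANOG peak was present in 786 of the NANOG-alone regions, 4.50% (4.21 to 4.82), against 7.00% of all H9 regions. Regions with SOX2 and NANOG had one in 10.3%, those with OCT4 and NANOG in 7.88% and those with all 3 factors in 22.3%. SOX2-alone and OCT4-alone regions had one in 1.90% and 2.49%. Regions with SOX2 and OCT4 had one in 3.47% (2.73 to 4.40), an interval that overlaps that of NANOG alone. The NANOG-alone share thus stood above those of the other single-factor classes and below those of the classes that NANOG shared, with intervals that did not overlap. SOX2-alone and OCT4-alone regions were also narrower, with median widths of 559 and 358 bp against 648 bp. The part of width in these shares was not tested.

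By the titles, OCT4 was the factor most often called in NT2/D1 at these regions. Its list is also the longest, with 46169 peaks against 38423 for SOX2 and 34208 for NANOG, and has its own control and setting. An NT2/D1 OCT4 peak was present in 1787 of them, 10.2% (9.80 to 10.7), against 19.4% of all H9 regions. A SOX2 peak was present in 817, 4.68%, against 8.48%. At least 1 NT2/D1 peak was present in 2749, 15.8%, against 24.5%. All 3 NT2/D1 factors met in 107, 0.613%, against 2.93%. If the NT2/D1 OCT4 and NANOG libraries are exchanged, as their source names have them, 10.2% is the NANOG share and 4.50% the OCT4 share.

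The low NANOG share went with the low H9 score. Among NANOG-alone regions below percentile 20, 3.12% had an NT2/D1 NANOG peak, among those from 60 to 80 6.97%, and among the 74 above percentile 90 24.3% (16.0 to 35.2). From percentile 60 to 80 the share was 8.55% for SOX2 and NANOG, 8.96% for OCT4 and NANOG and 9.40% for all 3 factors, and above percentile 90 it was 31.8%, 35.5% and 44.8%. When each class was weighted to the score bins of all H9 NANOG regions, the NT2/D1 NANOG share was 7.29% for NANOG alone, against 8.81%, 10.2% and 12.6% for these classes. Below percentile 20, regions with all 3 factors had an NT2/D1 NANOG peak in 9.66% (6.77 to 13.6), and the interval above percentile 90 was 42.9 to 46.6, both above the intervals of NANOG alone. The same held from percentile 20 to 40 (5.61 to 10.3 against 2.70 to 3.69) and 60 to 80 (8.18 to 10.8 against 6.05 to 8.02). From 40 to 60 and from 80 to 90 these intervals overlapped. From 40 to 60 OCT4 and NANOG regions lay above NANOG alone (6.24 to 9.49 against 4.51 to 5.89), while in the other bins these intervals overlapped. For SOX2 and NANOG the interval overlapped that of NANOG alone in every bin. From 40 to 60 its share was 4.93%, against 5.16% for NANOG alone. With the libraries exchanged, the weighted shares are those given next for OCT4.

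NT2/D1 OCT4 and SOX2 kept wider gaps when weighted to matched score, but not in every score bin. From percentile 60 to 80, an NT2/D1 OCT4 peak was present in 13.5% of NANOG-alone regions (12.2 to 14.9), against 19.5% for SOX2 and NANOG, 29.2% for OCT4 and NANOG and 47.3% for all 3 factors. From percentile 80 to 90 NANOG alone had 18.75%, near the 18.9% for SOX2 and NANOG. Above percentile 90 these 2 classes had 31.1% and 27.3%, with intervals that overlapped. Weighted to common score bins, the OCT4 shares were 13.4% for NANOG alone, against 19.03%, 30.7% and 45.6%. For NT2/D1 SOX2 they were 5.74% for NANOG alone, against 11.3%, 9.49% and 18.2%. The shared classes are also wider, with median widths of 775 to 975 bp against 648 bp for NANOG alone. A measure that does not use width, an NT2/D1 OCT4 summit within 500 bp of the H9 NANOG summit, gave 12.7% for NANOG alone at common score bins, against 18.6%, 29.3% and 43.7%.

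**Figure D3:**
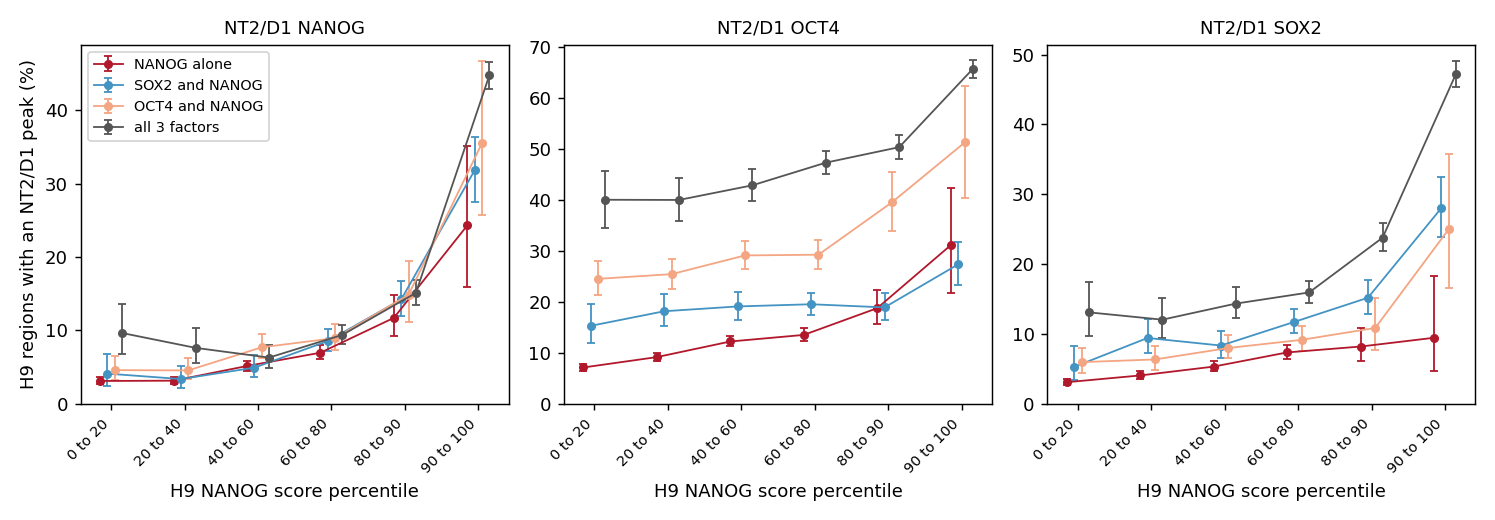
Share of H9 regions in percent (y axes) with an NT2/D1 peak of NANOG, OCT4 or SOX2 (panels, by title), by percentile bin of H9 NANOG score (x axis) and H9 factors in the region (colours); bars are 95% Wilson intervals. In the NANOG panel the classes lie nearer each other than in the OCT4 panel, with NANOG alone below all 3 factors (6.97% against 9.40% at 60 to 80). In the OCT4 panel NANOG alone has the lowest share up to percentile 80 (13.5% against 47.3% for all 3 factors at 60 to 80).

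Where NANOG was called in both lines, it was often the sole factor in both. Of the 786 NANOG-alone regions with an NT2/D1 NANOG peak, 396 held no other NT2/D1 factor (50.4%, 46.9 to 53.9). The share was 32.9% for regions with SOX2 and NANOG in H9, 29.3% for OCT4 and NANOG and 8.97% for all 3 factors. In NT2/D1 regions with no H9 peak it was 84.97%, so a NANOG peak called alone was the usual case in NT2/D1. With the libraries exchanged, 1403 of 1787 NANOG-alone regions held no other NT2/D1 factor (78.5%), against 60.8%, 74.5% and 48.7% in the classes that NANOG shared. In NT2/D1 regions with no H9 peak the exchanged share was 93.06%. NT2/D1 NANOG peaks in NANOG-alone regions held a median of 12 tags (fold 7.59, percentile 66.6), against 18 tags (fold 9.07, percentile 91.1) in regions with all 3 H9 factors.

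Apart from RPF1, HAS3, CCDC54 and NFATC2, regions strong for NANOG in both lines were nearest to NRXN3, SPOCK1, ISOC2, MTRR, CHAC2 and IGF2BP3. The SPOCK1 region (chromosome 5, 136372109 to 136372876), 462 kb from this proteoglycan gene, held 89 H9 NANOG tags at a fold of 13.6. In NT2/D1 it held NANOG at a fold of 16.8, OCT4 at 6.75 and SOX2 at 14.6. The region 1.71 kb from IGF2BP3, an oncofetal RNA-binding protein gene, had 69 tags in H9 and 32 in NT2/D1, with no other NT2/D1 factor. It also lay 953 bp from an H9 OCT4 peak.

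Some NANOG-alone regions of H9 held strong peaks of all 3 factors in NT2/D1. Beside HAS3 and SPOCK1, the leading ones were nearest to SMYD3, MYO18B, MORF4L2, BRWD3, LOXHD1, PCM1, HSP90B3P and FAM43A. The region 6.18 kb from BRWD3, a bromodomain protein gene, stood at percentile 80.2 for NANOG in H9, and its NT2/D1 peaks at 98.6 for NANOG, 97.2 for SOX2 and 81.5 for OCT4. Its nearest H9 OCT4 peak was 51.2 kb away and the nearest H9 SOX2 peak 352 kb. At MYO18B, an unconventional myosin gene, the NT2/D1 folds were 24.3 for NANOG, 17.6 for OCT4 and 8.49 for SOX2, while the H9 NANOG fold was 10.9. The FAM43A region lay 558 bp from an H9 OCT4 peak, close to the edge of the rule.

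NANOG-alone regions lay mostly away from gene starts. Within 1 kb of a TSS lay 1492 of them, 8.55% (8.14 to 8.97), against 9.06% of all H9 regions, a share near the background. A TSS was overlapped by 2.74%, against 2.53%. The median distance was 54.2 kb, and 7.00% lay beyond 500 kb from any listed gene. Of OCT4-alone regions 13.7% lay within 1 kb, and of OCT4 and NANOG regions 15.6%. The classes with SOX2 had 4.60% for SOX2 alone, 3.61% for SOX2 and NANOG, 7.59% for SOX2 and OCT4 and 4.42% for all 3 factors. NANOG-alone regions stood between the classes with SOX2 and those with OCT4 but no SOX2. The interval for SOX2 and OCT4 (6.47 to 8.87) overlaps that of NANOG alone.

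**Figure D4:**
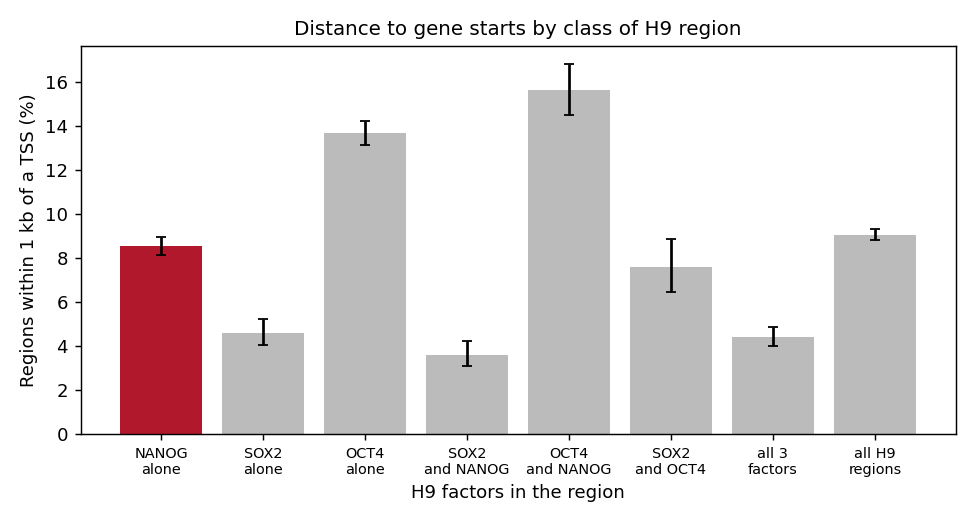
Share of H9 regions within 1 kb of a TSS in percent (y axis), by the H9 factors in the region (x axis); bars start at 0 and error bars are 95% Wilson intervals. NANOG alone (red) has 8.55%, between the classes with SOX2 (3.61% to 7.59%) and those with OCT4 but no SOX2 (13.7% and 15.6%).

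Promoter-proximal NANOG-alone regions differed from distal ones in NT2/D1. Within 1 kb of a TSS 22.99% held an NT2/D1 OCT4 peak (20.9 to 25.2), against 8.40% beyond 50 kb (7.84 to 8.99). Over all H9 regions these shares were 27.6% and 18.8%. OCT4-alone regions, where OCT4 had been called in H9, had 22.02% and 8.94%, and SOX2-alone regions 20.9% and 7.19%, with intervals that overlap those of NANOG alone. For NT2/D1 NANOG the shares of the NANOG-alone regions were 5.97% within 1 kb (4.87 to 7.28) and 3.78% beyond 50 kb (3.40 to 4.19), against 7.02% and 6.88% over all H9 regions. Their median H9 NANOG fold was 4.07 within 1 kb and 4.68 beyond 50 kb. The NANOG-alone regions within 1 kb were also wider, with a median of 728 bp against 631 bp. OCT4-alone and SOX2-alone regions within 1 kb had medians of 427 and 609 bp. The part of width in these shares was not tested.

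The strongest promoter-proximal regions belonged to RPF1, IAH1, CCDC142, WBP1L, FMN1, ACVR1B, SLC24A2, RFFL, MB21D2 and TBX22. CCDC142, which encodes a coiled-coil protein, had 127 tags and a fold of 13.7 over its start, with an H9 OCT4 peak 681 bp away. Its NT2/D1 peaks were NANOG with 26 tags (fold 5.17) and OCT4 with 16 tags (fold 7.45). ACVR1B, the type I receptor for Activin and Nodal, had 84 tags and a fold of 16.3 at 341 bp from its start (chromosome 12, 52345826 to 52346837), and no NT2/D1 peak. FMN1, a formin gene, had 160 tags and a fold of 13.05 over its start and an NT2/D1 SOX2 peak with 11 tags. TBX22, a T-box gene of palate development, had 72 tags and a fold of 10.2 at 81 bp from its start.

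Promoters near NANOG-alone regions held the 2 homeodomain-type words, which overlap, in lower shares than promoters at large. RefSeq windows were found for 1187 of 1442 genes with such a region within 1 kb (82.3%). These windows were matched by symbol, so some may lie at another start of the gene than the one near the region. TAATGG was present in 4.63% of them (3.58 to 5.98), against 6.87% of all 27305 promoters, and CATTA in 16.8% against 24.0%. The octamer was present in 1.43% (0.896 to 2.28) against 1.80% and the SOX-type word in 2.53% (1.78 to 3.58) against 3.38%, and both intervals include the share over all promoters. The promoters near NANOG-alone regions had a median GC content of 64%, against 58.3% over all promoters, and its part in these shares was not tested. In promoters of genes with all 3 H9 factors within 1 kb, the octamer was present in 3.82% and the SOX-type word in 4.51%. TAATGG was present there in 3.47% and CATTA in 19.1%. For genes with SOX2 and NANOG, TAATGG was present in 9.84% and CATTA in 22.95%. All these intervals overlap those of NANOG alone. The median GC content was 60.8% for all 3 factors and 60.7% for SOX2 and NANOG. Windows were found for under 80% of the genes of the SOX2-alone, OCT4-alone, OCT4 and NANOG and SOX2 and OCT4 classes, so comparisons with these are void.

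By nearest gene within 50 kb, NANOG-alone regions were spread over many genes. At least 1 was assigned to 6045 of 19461 genes with a listed start (31.1%), and within 1 kb to 1437 (7.38%). They made up 30.9% of all H9 regions assigned within 50 kb. Of the 6045 genes, 2197 (36.3%) had no other kind of H9 region there. The most regions fell to RUNX1T1, a transcriptional corepressor gene, with 9 of its 14 H9 regions. DTNA, GNAS, FYN and SORBS2 had 7 each. At GNAS, the gene of the stimulatory G protein alpha subunit, these were 7 of 8 H9 regions and none held all 3 factors. At FYN, a Src-family kinase gene, they were 7 of 11. PALM2AKAP2, MAPK10 and LINC00623 had 6 each, and PAX7 and SASH1 had 5.

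Core pluripotency genes had NANOG-alone regions, but these were a minority of their H9 regions. Such a region was assigned within 50 kb to 22 of 34 listed genes (64.7%, against 31.1% of all genes), and regions with all 3 H9 factors to 73.5%, against 13.9% of all genes. Of the 174 H9 regions of the list 35 were NANOG alone (20.1%, 14.8 to 26.7), below the 30.9% over all genes. Among the genes with none were POU5F1, which encodes OCT4, NANOG itself, CRIPTO, DPPA2, DPPA4, FOXD3, GDF3, LEFTY1, MYCN, PODXL and UTF1. SOX2 had 3 among 17 H9 regions, the strongest 11.8 kb from its start with 37 tags and a fold of 3.43.

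OTX2, a homeodomain factor of epiblast and forebrain, had the strongest NANOG-alone region of the list, with 85 tags and a fold of 8.22 at 45.3 kb, and 4 of its 13 H9 regions were of this kind. FGF4, a growth factor gene of early embryos, was the only core gene with no other kind of H9 region: both of its H9 regions were NANOG alone, the stronger with 80 tags and a fold of 4.86 at 3.04 kb. ZFP42, a zinc finger marker of pluripotent cells, had 73 tags (fold 5.90) at 1775 bp. LEFTY2, a Nodal inhibitor, had 66 tags (fold 7.57) at 1.11 kb. SALL4, a zinc finger factor of stem cells, had 47 tags (fold 4.56) at 290 bp, 80 bp from another H9 factor's peak. TCF7L1 had a fold of 4.51, TRIM71 6.59, DNMT3B 5.47, CDH1 4.38, KLF4 4.07, MYC 7.70 and PRDM14 4.72. The strongest regions of DPPA5, ESRRB, JARID2, L1TD1, LIN28A, LIN28B, NODAL, TERF1 and ZSCAN10 had folds of 3.08 to 5.55. That of L1TD1 lay 0.055 kb from another H9 factor's peak.

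Of the 35 NANOG-alone regions of the core list, 4 held an NT2/D1 peak (11.4%, 4.53 to 25.95), an interval that includes the 18.5% of all NANOG-alone regions assigned within 50 kb. ZSCAN10 had an NT2/D1 NANOG peak in its strongest NANOG-alone region, with 9 tags and a fold of 6.40. ESRRB had an NT2/D1 OCT4 peak there, with 8 tags and a fold of 10.99.

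Genes of Activin, Nodal and BMP signalling had NANOG-alone regions at 15 of 32 genes (46.9%, against 31.1% of all genes). These were 24 of 103 H9 regions (23.3%, 16.2 to 32.3), an interval that includes the 30.9% over all genes. Among receptors, ACVR1B, ACVR2A and BMPR1A had no other kind of H9 region within 50 kb. The ACVR2A region, near an Activin type II receptor, had 44 tags and a fold of 4.48 at 14.8 kb. BMPR1A, a BMP receptor, had 3 NANOG-alone regions, the strongest with 29 tags. The same held for the ligand TGFB2, with 29 tags (fold 4.81), and for FST, an Activin antagonist, with 41 tags (fold 3.62). These 5 genes were 33.3% of the 15, near the 36.3% over all genes. Of the intracellular mediators, SMAD2 had 3 of 6 and SMAD7, an inhibitor of the pathway, 3 of 10. NODAL had 2 of 4, the stronger with 40 tags at 440 bp.

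FGF and ERK pathway genes carried these regions at 16 of 19 genes (84.2%, 62.4 to 94.5), against 31.1% of all genes. Regions with all 3 H9 factors were also frequent near this list, at 57.9% of its genes against 13.9% of all genes. NANOG-alone regions made up 32 of the list's 86 H9 regions (37.2%, 27.7 to 47.8), an interval that includes the 30.9% over all genes. SPRY4, a feedback inhibitor, had 116 tags and a fold of 6.36 over its start, with an NT2/D1 OCT4 peak of 24 tags, and 3 of its 9 H9 regions were NANOG alone. Besides its region at 104 kb, DUSP6 had 2 NANOG-alone regions within 50 kb, the stronger 5.36 kb from its start with 107 tags. These SPRY4 and DUSP6 regions lay 0.484 and 0.18 kb from another H9 factor's peak. SPRED1 and SPRY1, inhibitors of the same pathway, had 4 of 5 and 4 of 7, and SPRED2, a relative of SPRED1, had 3 of 8, the strongest with 54 tags (fold 4.77). ETV5, an ETS factor downstream of FGF, had 72 tags (fold 6.08) and all 3 factors in NT2/D1, with NANOG at 41 tags and a fold of 7.51. The kinase gene MAPK3 had 31 tags and a fold of 5.52 at 276 bp from its start.

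WNT pathway genes had NANOG-alone regions at 17 of 26 genes (65.4%, against 31.1% of all genes). These were 38 of 124 H9 regions (30.6%), near the 30.9% over all genes. FZD5, a WNT receptor, had 68 tags and a fold of 10.1 at 27.1 kb. LEF1, a nuclear mediator, had 74 tags and a fold of 11.1 at 32.3 kb, with an NT2/D1 NANOG peak of 9 tags. RSPO3, a secreted enhancer of WNT signals, had 60 tags and a fold of 10.52, and AXIN2 73 tags and a fold of 9.58 at 45.05 kb. None of the 17 genes had NANOG-alone regions only, against 36.3% over all genes with such a region.

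Lineage regulators had many H9 regions, and a minority were NANOG alone. In the neuroectoderm list 45 of 250 regions were (18%, 13.7 to 23.2), and in the HOX list 23 of 132 (17.4%, 11.9 to 24.8). Both intervals lie below 30.9%. By gene, at least 1 such region was assigned to 24 of 32 neuroectoderm genes (75%, 57.89 to 86.75). For HOX it was 17 of 38 genes (44.7%, 30.15 to 60.29), against 31.1% of all genes. PAX7, a paired-box factor of neural crest and muscle, had 146 tags and a fold of 14.9 in the strongest region of these lists, 782 bp from another H9 factor, and 5 of its 15 H9 regions were NANOG alone. MAP2, a neuronal cytoskeleton gene, had 82 tags (fold 10.8) with NT2/D1 SOX2 and OCT4 peaks. Of the HOX genes, HOXD1 led with 46 tags (fold 7.03), followed by HOXB9, HOXB13 and HOXC6 at folds of 6.71, 4.39 and 3.64. The HOXD1 region lay 0.333 kb from another H9 factor's peak.

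In the mesendoderm list 24 of 97 regions were NANOG alone (24.7%), at 13 of 20 genes (65%, against 31.1% of all genes). SOX17, HAND1, LHX1 and EOMES, transcription factors of early germ layers, had folds of 5.19, 5.48, 4.58 and 7.63. CXCR4, a chemokine receptor and surface marker of definitive endoderm, had 1 H9 region, which was NANOG alone, with 63 tags and a fold of 5.57. In the trophectoderm list 16 of 75 were (21.3%), at 8 of 16 genes (50%). KRT18, a keratin of simple epithelia, had 125 tags and a fold of 9.04 at 2.46 kb, and an NT2/D1 OCT4 peak with 23 tags. MSX2 had a fold of 5.10, with NT2/D1 NANOG and OCT4 peaks of 13 and 7 tags. HAND1 and EOMES are in both lists.

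Chromatin, adhesion and housekeeping genes had shares of 17.9% to 30.8%. Chromatin regulators had 24 NANOG-alone of 78 regions (30.8%), at 17 of 28 genes (60.7%, against 31.1% of all genes). TET1, a DNA demethylation enzyme, had 102 tags at a fold of 4.61, SMARCAD1 41 tags at 8.30 and DNMT3A 72 tags at 3.50. CBX2, of Polycomb repressive complex 1, and HDAC1, a histone deacetylase, had no other kind of H9 region. They were 11.8% of the 17 genes, against 36.3% over all genes. Axon guidance and adhesion genes had 29 of 110 (26.4%), at 18 of 34 genes (52.9%). CDH8, CNTN5, SEMA3E and SEMA3A led this list at folds of 11.1, 12.2, 8.41 and 8.88. Ribosomal and housekeeping genes had 5 of 28 (17.9%), at 4 of 25 genes (16%). HNRNPA1, an RNA-binding protein gene, had 89 tags over its start and no other H9 region, RPS14 had 35 tags, EEF2 49 and RPL19 24.

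Genes of cells outside the early embryo had shares on both sides of the 30.9%. Muscle genes had 16 NANOG-alone of 33 regions (48.5%, 32.5 to 64.8), at 9 of 18 genes (50%, against 31.1% of all genes). The 4 genes with no other kind, 44.4% of the 9 against 36.3% over all genes, were TTN, the giant sarcomere protein, with 63 tags (fold 8.61), MYOD1, the myogenic factor, with 24 (fold 5.55), and the myosin genes MYH2 and MYH1 with 32 and 26. That share is near the one over all genes. ACTA1 had 32 tags, MYF5 35 and MYF6 32, the last 91 bp from another H9 factor. Fibroblast genes had 8 of 22 (36.4%), with THY1 at 74 tags, COL1A2 at 60, PDGFRB at 39 and FAP at 37. Hepatocyte genes had 5 of 18 (27.8%), with APOB at 52 tags, HP at 27, CYP2E1 at 29 and TAT at 28. Immune genes had 7 of 28 (25%), with CSF1R at 54 tags, CD2 at 41, ZAP70 at 34 and CD247 at 30. The CSF1R region lay 0.143 kb from another H9 factor's peak.

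**Figure D5:**
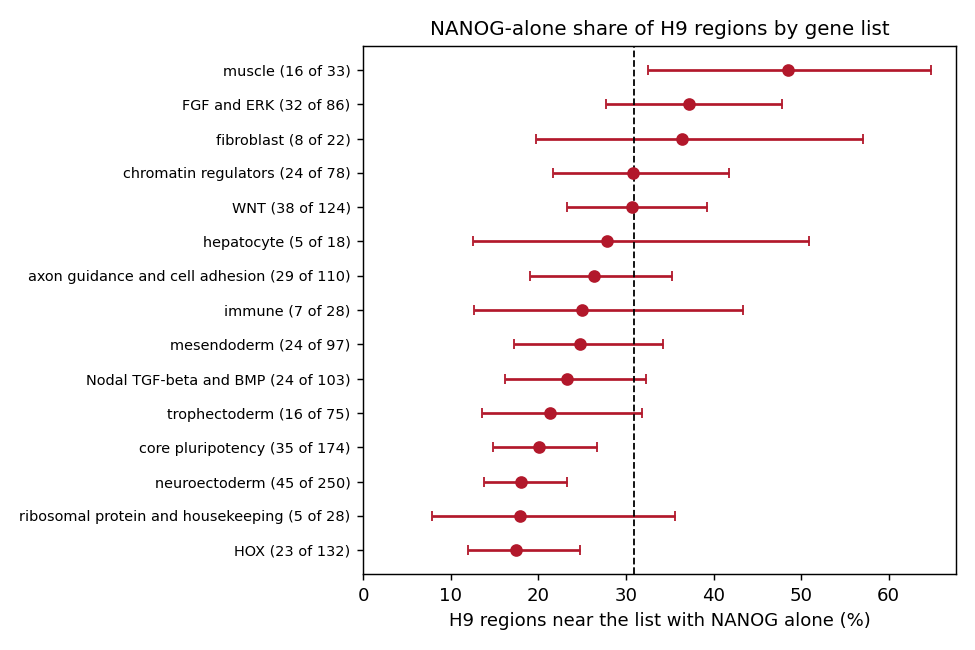
Share of the H9 regions assigned within 50 kb of a list's genes that were NANOG alone, in percent (x axis), for 15 gene lists (y axis, with counts of regions); bars are 95% Wilson intervals and the dashed line is the 30.9% over all genes. The HOX, neuroectoderm and core pluripotency intervals lie below the line and the muscle interval above it.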

How the data were processed

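Peak lists of 6 ChIP-seq libraries were used, 1 per factor and line; the 2 IgG samples were not analysed on their own. Peaks were called with MACS at a p-value cutoff of 0.001 against an IgG library, per the file headers, with a band width of 2000 in H9 and 200 in NT2/D1. No aligner is named in the sources used here. Coordinates are on hg19 according to the submitters' processing notes. In the deposited lists, the tag count of a peak is a raw count, the fold is the authors' ratio over background, the FDR column is in percent, per the file headers, and the distances to the nearest genes are the authors'. The header of the deposited score column was overwritten; all scores start at 30, as 10 times the negative log10 of the cutoff.

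Peaks were joined at an overlap of 1 bp with Python 3.11 and pandas; the steps were tested on simulated data. A region took the nearer listed gene of its strongest H9 NANOG peak, with RefSeq symbols for 99.2% of the regions. Shares carry Wilson intervals from scipy. The regions, gene lists and rules for named genes were chosen with earlier results of these data known. Named genes are those of the 15 highest scores, the 10 highest within 1 kb of a TSS, the 10 highest with NT2/D1 NANOG or with all 3 NT2/D1 factors, the 10 genes with most regions, all core pluripotency genes and up to 4 genes of each other list by score. Others named (SPRED1, SPRY1, MAPK3, ETV5, BMPR1A, FST, TGFB2, ACVR2A, SMAD2, CXCR4, CBX2, HDAC1, MYOD1, MYH1, MYH2) were chosen after their values were seen. A few genes that the rule names are not reported here. The same H9 peaks under other rules for overlap, score, FDR, width and chromosomes served as alternatives.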

Additional observations from a re-analysis of the deposited data

How the results depend on the processing

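The count of 17450 NANOG-alone regions stayed within 1.5 times under 7 of 9 alternatives, from 15531 with peaks joined up to 1 kb apart to 19810 with a reciprocal overlap of 50%. It was 7691 in the upper 50% of each H9 list by score and 7088 with H9 lists of equal length. The share with an NT2/D1 NANOG peak (4.50%) was 8.09% in the upper 50% by score, 6.91% with equal lengths, 6.23% for H9 peaks with an FDR of at most 5%, 7.17% with peaks joined up to 1 kb apart, 1.81% with the reciprocal overlap, 10.2% with the NT2/D1 libraries exchanged and 7.29% when weighted to common score bins. For NT2/D1 OCT4 (10.2%) the first 5 of these gave 16.6%, 14.5%, 15.02%, 14.2% and 3.32%, and the exchange 4.50%. The share within 1 kb of a TSS (8.55%) was 6.87% in the upper 50% by score and 7.97% with peaks joined; within 5 kb it was 15.9%. The other alternatives left these shares within their intervals. The share of these NT2/D1 NANOG regions with no other NT2/D1 factor (50.4%) was 78.5% with the exchange, an alternative chosen after seeing the data. The causes were not tested. No paired analysis was possible because each factor and line had 1 library and no result came from a test. A SOX2 or OCT4 site below the calling threshold counts as uncalled here, and the NT2/D1 lists, at a median of 7 to 11 tags a peak, limit what could be shared.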
